A study of Mus musculus with 4 samples.

Results

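AP-1 is a family of dimeric basic leucine zipper transcription factors, and its mRNAs were followed here across the cells of a mouse inguinal fat depot after 24 h in the cold. The members were taken by gene symbol and were Jun, Junb and Jund of the Jun family, Fos, Fosb, Fosl1 and Fosl2 of the Fos family, and Atf3. Each symbol matched 1 of the 31053 genes in the count tables, so 8 of 31053 genes are described. Cold libraries came from C57BL/6 mice of 8 weeks kept for 24 h at 4 °C (2 libraries). Room-temperature libraries came from C57BL/6 mice of 8 weeks kept for 24 h at room temperature (2 libraries). For both groups the stromal vascular fraction, in which mature adipocytes are left out, was taken from the inguinal fat pad numbered the fourth, and single cells were profiled with the 10x Chromium 3′ v3 kit. The labels give no genetic change, no sex and no number of animals behind a library. The title of the study places the question in how mammary ductal epithelium bears on the thermogenic response of fat to cold.

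Jun proteins bind DNA as dimers with each other or with Fos proteins, whereas Fos proteins need a Jun partner, and Atf3 pairs with Jun proteins or with itself. Most of these genes are immediate early genes, which MAP kinase signalling switches on within minutes of growth factors, cytokines or stress, and they are also known to be induced in cells during enzymatic digestion of tissue. In the mammary gland, AP-1 activity has been tied to epithelial growth and involution. Per the labels, collagenase digestion took 40 min at 37 °C in both groups, and the part of that step in the levels was not tested.

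The filters left 3929 and 2971 cold cells and 5232 and 3065 room-temperature cells, 15197 in all, in 41 clusters. The libraries held 35198164 to 55160902 UMIs, where a UMI is 1 counted mRNA molecule. Pairs of libraries shared 5 to 10 cell barcodes. Marker genes named 14 classes, of which 10 had at least 20 cells in every library and were tested, and 1096 cells stayed unnamed or mixed. Each class name stands for cells that carry the markers of that type. The labelled fraction matched the markers in that no cluster was named adipocyte, and 7 adipocyte markers summed, with 3 of 7 at zero, to 7.89 and 7.80 CPM in cold fibroblasts and 4.93 and 4.61 CPM in room-temperature fibroblasts. CPM is the count of a gene scaled to a common total of UMIs, here per class and library. The labels do not say that libraries came from different animals. The p-values of tests within a class or cluster thus measure the spread between libraries, which may be technical. In the joint fits below, where the library is a block, they measure the spread of class sums that is left within libraries.

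Promoters of Jun, Fos, Atf3 and Fosl2, the 4 members plotted below, are shown first, as the 250 bases before the start that RefSeq gives on GRCm38.p6. Capitals mark matches to the cyclic AMP response and AP-1 motif TGACNTCA, the AP-1 motif TGANTCA or the shorter TGACG, searched on both strands. A TGACG inside TGACNTCA counts for both motifs.
Jun, chr4:95052223-95052472, minus strand: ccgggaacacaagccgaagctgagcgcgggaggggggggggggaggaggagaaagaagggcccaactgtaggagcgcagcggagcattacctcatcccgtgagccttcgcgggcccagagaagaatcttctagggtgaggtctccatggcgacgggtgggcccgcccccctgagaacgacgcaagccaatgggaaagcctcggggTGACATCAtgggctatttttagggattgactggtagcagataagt
Fos, chr12:85473640-85473889, plus strand: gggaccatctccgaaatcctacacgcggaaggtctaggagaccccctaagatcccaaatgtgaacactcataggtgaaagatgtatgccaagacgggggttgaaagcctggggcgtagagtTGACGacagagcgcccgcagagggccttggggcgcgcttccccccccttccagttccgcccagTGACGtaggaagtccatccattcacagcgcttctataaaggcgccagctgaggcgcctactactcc
Atf3, chr1:191183334-191183583, minus strand: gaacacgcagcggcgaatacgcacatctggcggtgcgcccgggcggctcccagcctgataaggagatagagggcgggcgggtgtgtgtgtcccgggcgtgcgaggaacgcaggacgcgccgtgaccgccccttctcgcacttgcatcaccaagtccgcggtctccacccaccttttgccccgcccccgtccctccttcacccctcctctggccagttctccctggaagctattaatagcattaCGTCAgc
Fosl2, chr5:32136222-32136471, plus strand: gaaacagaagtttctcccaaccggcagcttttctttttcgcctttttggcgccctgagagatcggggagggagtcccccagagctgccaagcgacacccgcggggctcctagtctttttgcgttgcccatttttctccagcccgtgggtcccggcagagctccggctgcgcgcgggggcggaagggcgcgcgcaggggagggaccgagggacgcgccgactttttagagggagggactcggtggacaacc
The Jun window held TGACATCA with its first base 45 bases before the start. The Fos window held TGACG at 129 and at 66 bases before the start, and the Atf3 window held TGACG on the other strand at 7 bases. The Fosl2 window held none of the 3 motifs, which says only that these letters are not in this window. Of 32851 RefSeq windows of the same length, 7.49% held TGACNTCA, 6.75% held TGANTCA and 17.8% held TGACG. The matches are a description and were not tested as binding sites. In the annotation of the files' build the genes lie at chr4:95049034-95052222 (Jun), chr12:85473890-85477273 (Fos), chr1:191170296-191218039 (Atf3) and chr5:32135801-32157842 (Fosl2), and the Atf3 and Fosl2 windows lie inside those spans, before the start that RefSeq uses.

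Over both temperatures, fibroblasts and adipose progenitors held the highest Jun level, 2135 ± 1163 CPM, and T cells the lowest, 113 ± 69.3 CPM (mean ± SD over 4 libraries). Fos ran in nearly the same order, with 3327 ± 1392 CPM in fibroblasts and 198 ± 73.0 CPM in T cells. Atf3, a factor induced by stress in many cell types, was highest in macrophages and monocytes at 701 ± 126 CPM and lowest in T cells at 22.5 ± 10.5 CPM. Fibroblasts thus headed the order for Jun and Fos and macrophages that for Atf3, and lymphocytes closed each order. Luminal cells came next to the top, hormone-sensing ones for Jun (1699 ± 599 CPM). Those with both marker sets did so for Fos (2572 ± 434 CPM) and Atf3 (681 ± 284 CPM). Fosb, a close relative of Fos, averaged 704 ± 230 CPM in fibroblasts and 55.4 ± 11.9 CPM in T cells. Junb, a Jun protein that restrains growth in several cell types, averaged 2732 ± 230 CPM in macrophages and 702 ± 234 CPM in alveolar progenitors. Jund, the least inducible Jun protein, averaged 1386 ± 499 CPM in fibroblasts and 447 ± 22.1 CPM in T cells. Fosl2, a Fos protein with later and longer expression than Fos, stood apart in its order. It was highest in NK cells at 383 ± 156 CPM and lowest in B cells at 22.9 ± 7.29 CPM, with hormone-sensing luminal cells next at 26.3 ± 13.2 CPM. Fosl1, another Fos protein with late expression, was near the detection limit, with the highest class mean in alveolar progenitors at 14.4 ± 9.16 CPM. Nearly all neighbours in these orders overlapped over the 4 libraries. The exceptions were Jun in alveolar progenitors above NK cells, Junb in macrophages above NK cells, and Fosb in dendritic cells above luminal cells with both marker sets.

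**Figure D1:**
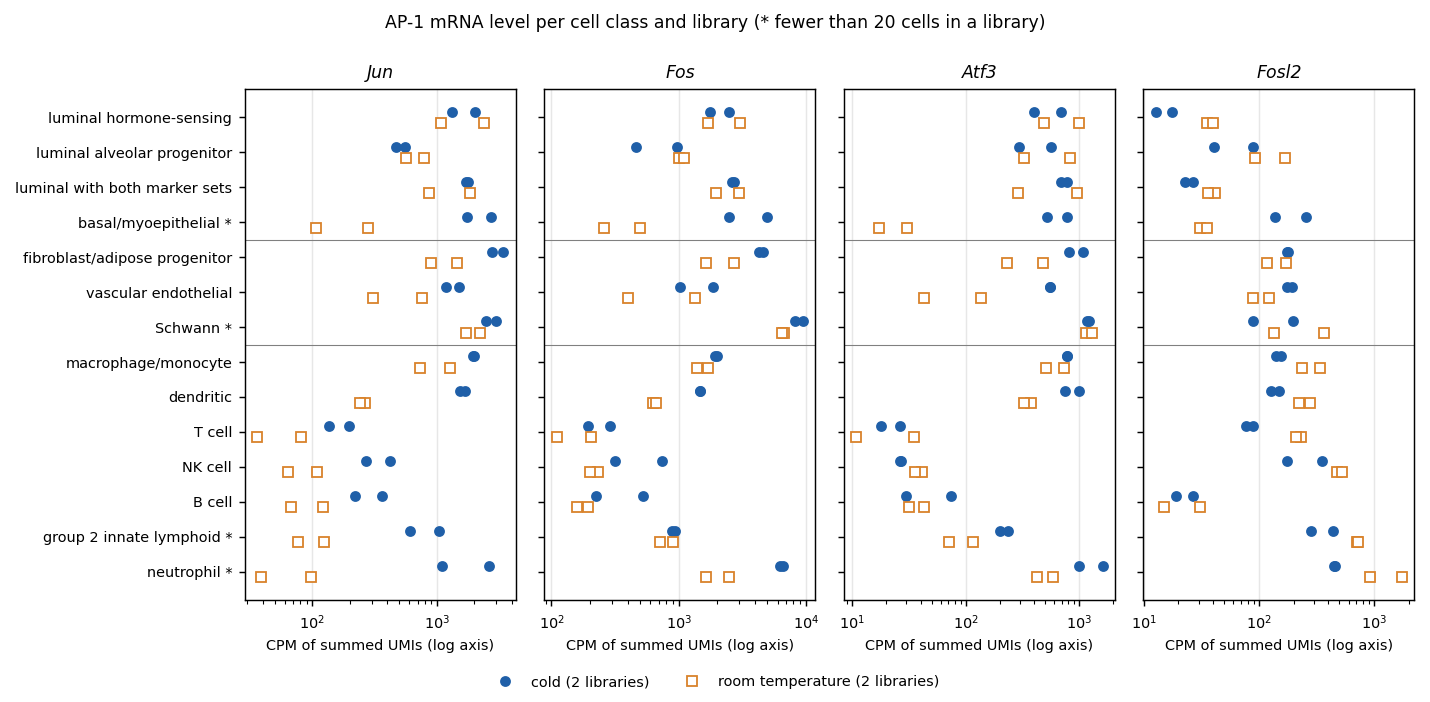
CPM of Jun, Fos, Atf3 and Fosl2 (log axis) in each class, with 1 filled circle per cold library and 1 open square per room-temperature library; lines part epithelial, stromal and immune classes. Cold circles lie right of the squares for Jun in dendritic cells (1671 and 1545 against 266.8 and 241.1 CPM) and left of them for Fosl2 in T cells (89.4 and 76.8 against 233.7 and 210.7 CPM).

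The question of the cold effect was asked in each class by an edgeR quasi-likelihood test over all genes of that class. Over the 10 classes, 73 tests of a member were made, of which 7 were called higher in cold and 1 lower at an adjusted p under 0.05. Over all genes and classes, 0.481% of tests were called higher and 0.639% lower. Jun, the founding member of the family, gave 4 of the 7 higher calls, and dendritic cells, which present antigen to T cells, gave 3. The called lower test was Fosl2 in T cells.

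In dendritic cells Jun stood at 1671 and 1545 CPM in the cold libraries and 266.8 and 241.1 CPM at room temperature. Both cold libraries lay far above both others. The log2 fold change was 2.66 (SE 0.15, adjusted p 5.721e-04). In NK cells, cytotoxic innate lymphocytes, Jun stood at 417.8 and 271.8 CPM in cold and 109.9 and 63.9 CPM at room temperature. The groups did not overlap, and the log2 fold change was 2.04 (SE 0.29, adjusted p 0.0045). In T cells Jun stood at 195.9 and 137.4 CPM in cold and 81.1 and 36.1 CPM at room temperature. The groups again lay apart, with a log2 fold change of 1.51 (SE 0.30, adjusted p 0.0295). That call was lost without room-temperature replicate 2 (log2 fold change 1.02, adjusted p 0.1304) and by DESeq2 (1.47, adjusted p 0.2605), which called no member higher in T cells, where it called 0.28% of genes higher and 1.18% lower. In fibroblasts and adipose progenitors, the stromal cells that hold the precursors of fat cells, Jun stood at 3422 and 2770.0 CPM in cold and 1450.0 and 897.6 CPM at room temperature. Both cold libraries were higher, with a log2 fold change of 1.44 (SE 0.27, adjusted p 0.0406). It was not called without cold replicate 1 (1.24, adjusted p 0.1398) or without cold replicate 2 (1.62, adjusted p 0.1564). Background in these classes was 0.191% of genes called higher and 0.0836% lower in dendritic cells, 0.571% and 0.503% in NK cells, 0.571% and 1.8% in T cells, and 1.52% and 2.37% in fibroblasts.

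Jun did not pass the test in the other 6 classes, although in 3 of them the groups lay apart with cold higher. In vascular endothelial cells Jun stood at 1179 and 1516 CPM in cold and 758.6 and 306.7 CPM at room temperature (fitted log2 change 1.37, SE 0.38, adjusted p 0.333). In macrophages and monocytes it stood at 1992 and 1944 CPM in cold and 1284 and 737.8 CPM at room temperature (0.94, SE 0.28, adjusted p 0.253). In B cells it stood at 360.3 and 219.1 CPM in cold and 121.2 and 67.9 CPM at room temperature (1.63, SE 0.35, adjusted p 0.897). EdgeR called 0% of genes in either direction in B cells, where 2 of 7 members had an unadjusted p under 0.05 (4.97% of genes), and DESeq2 called 0 members. Over the 10 classes, both cold libraries lay above both others for Jun in 7 and below them in 1, the alveolar progenitors. Over all genes and classes, 21.7% of tests lay apart with cold above and 23.3% with cold below.

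Jund rose in fibroblasts, at 1957 and 1645 CPM in cold and 1043 and 899.5 CPM at room temperature. The groups lay apart, with a log2 fold change of 0.93 (SE 0.18, adjusted p 0.0420). The call was lost without cold replicate 1 (0.77, adjusted p 0.1961), without cold replicate 2 (1.09, adjusted p 0.1461) and without room-temperature replicate 2 (0.80, adjusted p 0.088). Jund lay apart with cold higher in 6 of 10 classes and with cold lower in 0. Junb passed the test in none of the 10 classes, and lay apart with cold higher in 3 and lower in 3, which is near the shares over all genes. In macrophages, where it was most abundant, Junb stood at 2484 and 2655 CPM in cold and 3033 and 2758 CPM at room temperature (fitted log2 change -0.19, adjusted p 0.726).

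In the Fos family, Fos itself was called in dendritic cells only, at 1483 and 1468 CPM in cold and 626.1 and 665.4 CPM at room temperature. The 2 libraries of each group lay close together and the groups far apart. The log2 fold change was 1.19 (SE 0.13, adjusted p 0.0137). It was not called without cold replicate 1 (1.14, adjusted p 0.0587) or without room-temperature replicate 1 (1.17, adjusted p 0.1034). In fibroblasts Fos stood at 4631 and 4293 CPM in cold and 2740.0 and 1643 CPM at room temperature. The groups lay apart there, but the test was not passed (1.06, SE 0.27, adjusted p 0.0846). Fosb passed the test in none of the 10 classes. Fosl1 could be fitted in 3 classes and its fitted changes lay below 0 in all 3, none called. In macrophages its counts were 2 and 0 UMIs in cold and 28 and 19 UMIs at room temperature.

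Fosl2 ran against Jun. In T cells it stood at 89.4 and 76.8 CPM in cold and 233.7 and 210.7 CPM at room temperature. Both cold libraries lay below both others, with a log2 fold change of -1.47 (SE 0.15, adjusted p 0.0013), against a background of 1.8% of genes called lower in T cells. Dendritic markers in T cells were lower in both cold libraries too, at 540.7 and 487.2 CPM in cold and 936.2 and 866.0 CPM at room temperature (0 of 8 at zero). Erythroid markers overlapped, at 6.95 and 286.7 CPM in cold and 3114 and 2.53 CPM at room temperature, and the part of either list in the result was not tested. Fosl2 lay apart with cold lower in 7 of 10 classes and with cold higher in 2, the fibroblasts and the vascular endothelial cells. In macrophages it stood at 155.8 and 140.9 CPM in cold and 234.3 and 340.0 CPM at room temperature (-0.96, SE 0.19, adjusted p 0.103). In NK cells, where it was most abundant, it stood at 352.7 and 175.3 CPM in cold and 480.6 and 521.9 CPM at room temperature (-0.99, SE 0.25, adjusted p 0.0908). In both classes the cold libraries were the lower ones, without passing the test. In vascular endothelial cells Fosl2 stood at 194.3 and 174.4 CPM in cold and 121.4 and 88.1 CPM at room temperature (0.84, SE 0.18, adjusted p 0.229).

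Atf3 was called in dendritic cells, at 996.8 and 749.3 CPM in cold and 378.5 and 323.8 CPM at room temperature. The groups lay apart, with a log2 fold change of 1.32 (SE 0.19, adjusted p 0.0425). The call was lost without cold replicate 1 (1.05, adjusted p 0.0976), room-temperature replicate 1 (1.45, adjusted p 0.1694) or room-temperature replicate 2 (1.18, adjusted p 0.1053), and also with doublets kept (1.24, adjusted p 0.2439), with the looser cell filter (1.23, adjusted p 0.2218) and at Leiden resolution 2 (1.29, adjusted p 0.177). In vascular endothelial cells, which line blood vessels, Atf3 stood at 552.0 and 553.0 CPM in cold and 135.9 and 43.0 CPM at room temperature. The cold libraries were alike and far above the others, yet the test over the class was not passed (2.66, SE 0.43, adjusted p 0.148). In fibroblasts Atf3 stood at 1090.0 and 821.0 CPM in cold and 477.0 and 230.6 CPM at room temperature (1.46, SE 0.35, adjusted p 0.0749).

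**Figure D2:**
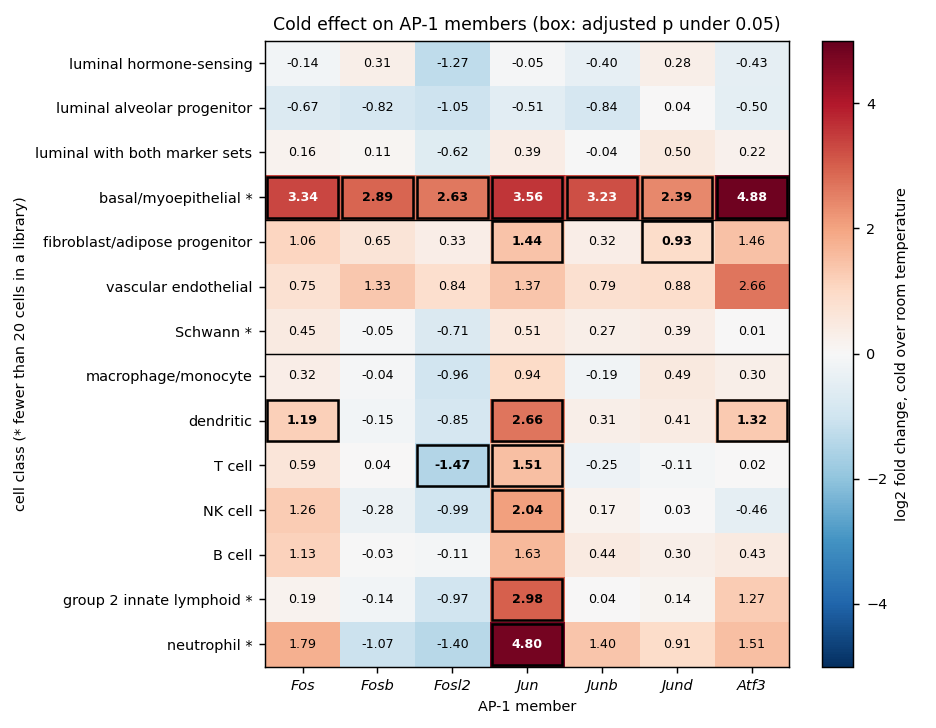
Log2 fold change of 7 members (columns) in each class (rows), cold over room temperature; red is higher in cold, blue lower, and a box marks an adjusted p under 0.05. The basal/myoepithelial row is red throughout (2.39 to 4.88), the alveolar progenitor row is blue for 6 of 7 members, and the Fosl2 column is blue in most immune rows.

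In fibroblasts both cold libraries lay above both others for 6 of 8 members (22.5% of all genes of that class) and below them for Fosl1 (29.7% of genes). In vascular endothelial cells they lay above for 6 of 7 members (18.4% of genes) and below for 0 (22.9%). No member was called in endothelial cells by edgeR, although 5 of 7 had an unadjusted p under 0.05 (9.49% of all genes), and DESeq2 called 1, Jund (0.88, adjusted p 0.0344, with 0.431% of genes called higher and 0.1% lower by DESeq2). There edgeR called 0.02% of genes higher and 0% lower. In dendritic cells they lay above for 5 of 7 members (20.3% of genes) and below for Fosl2 (19.8%). In macrophages they lay above for 4 of 8 members (23.7% of genes) and below for 3 (21% of genes). DESeq2 called Jun higher (0.94, adjusted p 0.0073) and Fosl2 lower (-0.96, adjusted p 0.001) in macrophages, with 0.38% of genes called higher and 1.19% lower by DESeq2. There edgeR called neither, and 4 of 8 members had an unadjusted p under 0.05 (12.3% of genes). EdgeR called 0.108% of genes higher and 0.289% lower there. In NK cells both cold libraries lay above both others for 3 of 7 members (20.8% of genes) and below for 2 (22.8%), in T cells above for 1 of 7 (30.1%) and below for 2 (19.3%), and in B cells above for 2 of 7 (14.3%) and below for 0 (19.6%). In hormone-sensing luminal cells they lay above for 1 of 8 (19.3%) and below for 2 (26.4%), and in luminal cells with both marker sets above for 1 of 7 (20.2%) and below for 1 (27.9%).

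Other measures moved with these results. In dendritic cells, 9 T cell markers summed to 509.3 and 736.0 CPM in cold and 233.1 and 440.2 CPM at room temperature, with 0 of 9 at zero in all libraries. The class's own 8 markers summed to 11210.0 and 8682 CPM in cold and 12610.0 and 10960.0 CPM at room temperature. In fibroblasts the 8 own markers were lower in both cold libraries, at 24850.0 and 24760.0 CPM against 34450.0 and 30850.0 CPM. In NK cells the 7 own markers were lower too, at 7759 and 8048 CPM in cold and 10770.0 and 11450.0 CPM at room temperature. Of other lists in NK cells, T cell markers summed to 917.0 and 926.4 CPM in cold and 637.6 and 546.8 CPM at room temperature (0 of 9 at zero), and group 2 innate lymphoid markers to 347.3 and 526.0 CPM in cold and 169.6 and 236.1 CPM at room temperature (1 of 7 at zero). Macrophage, dendritic and B cell markers were lower in both cold libraries of NK cells. The median mitochondrial share of UMIs per cell was lower in both cold libraries in 3 classes with a Jun call, at 1.51% and 1.84% in cold and 2.32% and 2.86% at room temperature in fibroblasts. It was 3.07% and 3.16% in cold and 3.74% and 4.12% at room temperature in NK cells, and 4.45% and 4.60% in cold and 5.05% and 5.23% at room temperature in T cells. In dendritic cells it overlapped, at 2.63% and 2.89% in cold and 2.74% and 3.12% at room temperature. Classes without a Jun call showed this shift too. The share was 2.16% and 2.52% in cold and 3.15% and 3.58% at room temperature in macrophages. In luminal cells with both marker sets it was 5.34% and 5.38% against 6.06% and 6.23%. It was also lower in both cold libraries of vascular endothelial and B cells, and overlapped in hormone-sensing and alveolar luminal cells. Fibroblasts also changed in their mix of clusters, since the largest of their clusters in cold held 441 and 239 cold cells but 110 and 14 room-temperature cells. The part of these shifts in the results was not tested. Fits within single clusters are given below, but they leave out this fibroblast cluster, which had too few cells in room-temperature replicate 2. Jun in it stood at 3764 and 3258 CPM in cold and 1631 and 614.0 CPM at room temperature.

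In luminal epithelium, the inner layer of the ducts, no member was called in any of 3 classes. In alveolar progenitors, the secretory lineage, both cold libraries lay below both others for 5 of 7 members (17.7% of all genes) and above them for 0 (28.8% of genes). Junb stood at 581.8 and 468.8 CPM in cold and 1007 and 751.1 CPM at room temperature (fitted log2 change -0.84, SE 0.27, adjusted p 0.0568). Fosb stood at 268.7 and 195.3 CPM in cold and 406.0 and 363.2 CPM at room temperature (-0.82, SE 0.27, adjusted p 0.0647). Fosl2 stood at 40.6 and 88.6 CPM in cold and 167.4 and 92.5 CPM at room temperature (-1.05, SE 0.33, adjusted p 0.0560). These cold libraries were the lower ones throughout, and 4 of 7 members had an unadjusted p under 0.05 (15.4% of genes), but neither edgeR nor DESeq2 called any. In this class 2.64% of genes were called higher and 1.47% lower. Its cells held a median of 3383 and 4036 UMIs in cold and 8307 and 11127 UMIs at room temperature, and its 8 own markers summed to 24040.0 and 18870.0 CPM in cold and 12620.0 and 12290.0 CPM at room temperature. Their part in the lower values was not tested.

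In hormone-sensing luminal cells, which carry the receptors for estrogen, progesterone and prolactin, Jun stood at 1321 and 2014 CPM in cold and 2375 and 1085 CPM at room temperature. The groups overlapped (log2 fold change -0.05, SE 0.45, adjusted p 0.979). Fos also overlapped, at 1770.0 and 2478 CPM in cold and 3043 and 1701 CPM at room temperature (-0.14, adjusted p 0.889). Fosl2 was lower in both cold libraries, at 12.7 and 17.5 CPM against 35.0 and 39.9 CPM (-1.27, SE 0.19, adjusted p 0.296). DESeq2 called that change (-1.27, adjusted p 0.003), with 0.486% of genes called higher and 0.596% lower by DESeq2. EdgeR called no member there, 2 of 8 had an unadjusted p under 0.05 (12.4% of genes), and it called 0.00785% of genes higher and 0% lower. In luminal cells with both marker sets Jun stood at 1715 and 1793 CPM in cold and 1836 and 865.1 CPM at room temperature, which overlap. There 0 of 7 members were called by edgeR, 2 at an unadjusted p under 0.05 (16.8% of genes) and 0 by DESeq2, and edgeR called 0% of genes higher and 0.00841% lower.

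Basal or myoepithelial cells, the contractile outer layer of the ducts, had higher levels of every member in both cold libraries. The share of all genes lying apart was not counted in this class, and was 21.7% with cold above over the 10 tested classes. They had 29 and 19 cells in cold and 52 and 94 cells at room temperature, under the minimum for the main tests, and were fitted as an alternative chosen after the data were seen, with a minimum of 10 cells. All 7 members that could be fitted rose, where 3.12% of 6341 genes were called higher and 0.41% lower. Jun stood at 2711 and 1759 CPM in cold and 107.8 and 279.0 CPM at room temperature. The lower cold library was well above the higher of the others, and the log2 fold change was 3.56 (SE 0.36, adjusted p 6.392e-05). Fos stood at 4941 and 2503 CPM in cold and 260.6 and 499.8 CPM at room temperature (3.34, SE 0.34, adjusted p 6.392e-05). Atf3 stood at 773.3 and 522.3 CPM in cold and 30.6 and 17.2 CPM at room temperature. Every cold value lay far above both room-temperature values, with a log2 fold change of 4.88 (SE 0.32, adjusted p 2.949e-06).

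Junb stood at 3918 and 2539 CPM in cold basal cells and 257.4 and 453.9 CPM at room temperature (3.23, SE 0.28, adjusted p 1.926e-05). Jund stood at 1161 and 739.0 CPM in cold and 144.8 and 227.4 CPM at room temperature (2.39, SE 0.28, adjusted p 1.587e-04). Both Jun relatives thus lay apart by more than the spread within either group. Fosb stood at 409.2 and 163.9 CPM in cold and 29.0 and 47.8 CPM at room temperature (2.89, SE 0.40, adjusted p 7.213e-04). Fosl2 stood at 138.4 and 258.4 CPM in cold and 30.6 and 35.4 CPM at room temperature (2.63, SE 0.32, adjusted p 2.500e-04). Fosl2, lower in cold in most other classes, was higher here. Fosl1 had 3 and 9 UMIs in cold and 0 and 0 UMIs at room temperature, and was not fitted in this class alone. The 7 calls held without each library in turn, except Fosb without room-temperature replicate 1 (2.62, adjusted p 0.0738).

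The basal cluster carried its 9 markers in both groups, slightly higher in cold, at 17950.0 and 18730.0 CPM in cold and 17060.0 and 16120.0 CPM at room temperature. Median depth was 6456 and 9413 UMIs in cold cells and 9697 and 8447 UMIs in room-temperature cells. Few cells carry these values, and the single cell with most Fos UMIs gave 22.8% and 33.2% of them in cold and 19.8% and 9.4% at room temperature. Alveolar markers summed to 102.3 and 291.7 CPM in cold and 20.9 and 73.6 CPM at room temperature in this class, with 0 of 8 at zero in all libraries, and their part in the result was not tested.

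**Figure D3:**
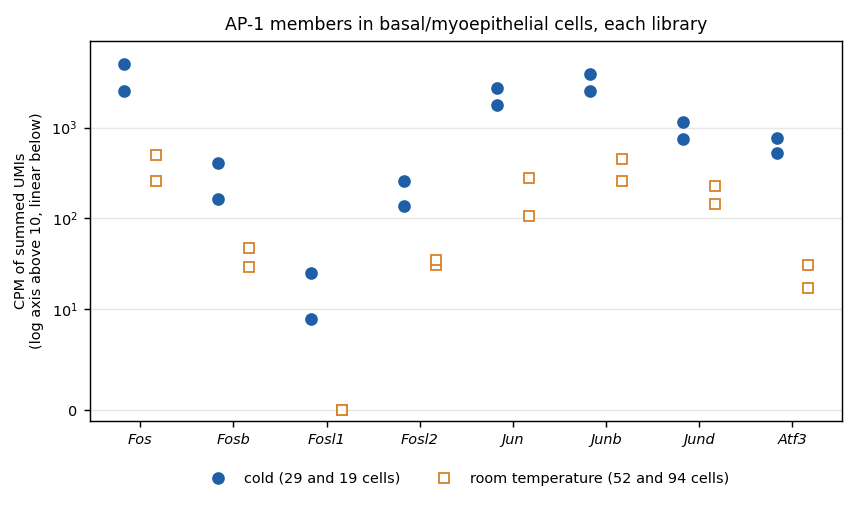
CPM of the 8 members in basal/myoepithelial cells, with filled circles for the cold libraries (29 and 19 cells) and open squares for room temperature (52 and 94 cells); the axis is logarithmic above 10 CPM and linear below. Every cold circle lies above both squares of its gene, with Fos at 4941 and 2503 against 260.6 and 499.8 CPM.

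Of the other small classes, fitted in the same added alternative, group 2 innate lymphoid cells and neutrophils showed the Jun change again. In the innate lymphoid cells, tissue-resident cells that release type-II cytokines, Jun stood at 1043 and 605.5 CPM in cold and 124.3 and 77.2 CPM at room temperature. The groups lay apart (2.98, SE 0.39, adjusted p 0.0030, 0.401% of genes called higher). These values rest on 137 and 97 Jun UMIs from 33 and 44 cells in cold. At room temperature there were 14 and 6 UMIs from 32 and 18 cells. In neutrophils, short-lived phagocytes, Jun had 165 and 52 UMIs in cold and 3 and 1 UMIs at room temperature, or 2623 and 1109 CPM against 97.9 and 38.9 CPM. The fitted log2 fold change was 4.80 (SE 0.74, adjusted p 0.0427, 0.326% of genes called higher) and rests on those few molecules. Fosl2 in neutrophils stood at 461.1 and 447.8 CPM in cold and 913.5 and 1749 CPM at room temperature, lower in both cold libraries without passing the test (-1.40, adjusted p 0.235). In Schwann cells, the glia of peripheral nerves, no member was called by edgeR. There 2 of 7 members had an unadjusted p under 0.05, as did 207 of all 1085 genes tested. Macrophage markers there summed to 146.7 and 124.8 CPM in cold and 3540.0 and 3894 CPM at room temperature, and 1.29% of genes were called higher and 4.61% lower.

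Because classes can change in their mix, the members were also tested within each of the 19 single clusters that had enough cells, a further alternative chosen after the data were seen. There 29 tests were called higher and 5 lower, where 0.761% of all tests were higher and 0.871% lower. Jun was called higher in 13 of 15 stromal and immune clusters, in all 10 immune ones with log2 fold changes of 0.75 to 2.35, and in 0 of 4 luminal clusters. Few genes of any kind were called in luminal clusters 16, 4 and 8, with 0, 1 and 0 higher and 0, 0 and 1 lower. Jun in luminal cluster 4 was not called at 0.93 (SE 0.21), but was in macrophage cluster 1 at 0.75 (SE 0.17). Luminal clusters 8 and 20 repeat the fits of their whole classes. A lack of luminal calls is thus no measure of a smaller Jun change. The 2 stromal clusters without a call were fibroblast clusters 5 (0.60, adjusted p 0.276) and 17 (1.03, adjusted p 0.118). Fosl2 was called lower in 5 immune clusters, which were T cell cluster 2, dendritic cluster 10 and macrophage clusters 1, 7 and 22, with the strongest change in T cells (-1.41, adjusted p 1.967e-05). Fos was called higher in 5 clusters, Atf3 in 5, Jund in 3, Fosb in 2 and Junb in 1.

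Within clusters the endothelial Atf3 difference passed the test. In cluster 12, led by Gpihbp1 and Car4, Atf3 stood at 251.2 and 434.0 CPM in cold and 30.1 and 16.1 CPM at room temperature (3.93, SE 0.33, adjusted p 1.204e-04). In cluster 23, led by Plvap and Esm1, it stood at 627.2 and 561.6 CPM in cold and 191.3 and 38.2 CPM at room temperature (2.28, SE 0.37, adjusted p 0.0074). In both clusters each cold library lay above each of the others.

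In hormone-sensing cells the class sums mixed clusters that differed in Jun level and whose cell numbers shifted. Cluster 4, with 470 and 361 cold cells and 104 and 99 room-temperature cells, held Jun at 1226 and 1517 CPM in cold and 805.7 and 665.2 CPM at room temperature. Fos in cluster 4 stood at 1669 and 2093 CPM in cold and 1172 and 1158 CPM at room temperature. Both genes were higher in both cold libraries of that cluster, without passing the test (Jun 0.93, SE 0.21, adjusted p 0.363, and Fos 0.73, SE 0.19, adjusted p 0.403). Cluster 16, with 29 and 76 cold cells and 201 and 22 room-temperature cells, held more Jun in every library, at 1956 and 3787 CPM in cold and 2771 and 1647 CPM at room temperature, and the groups overlapped.

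**Figure D4:**
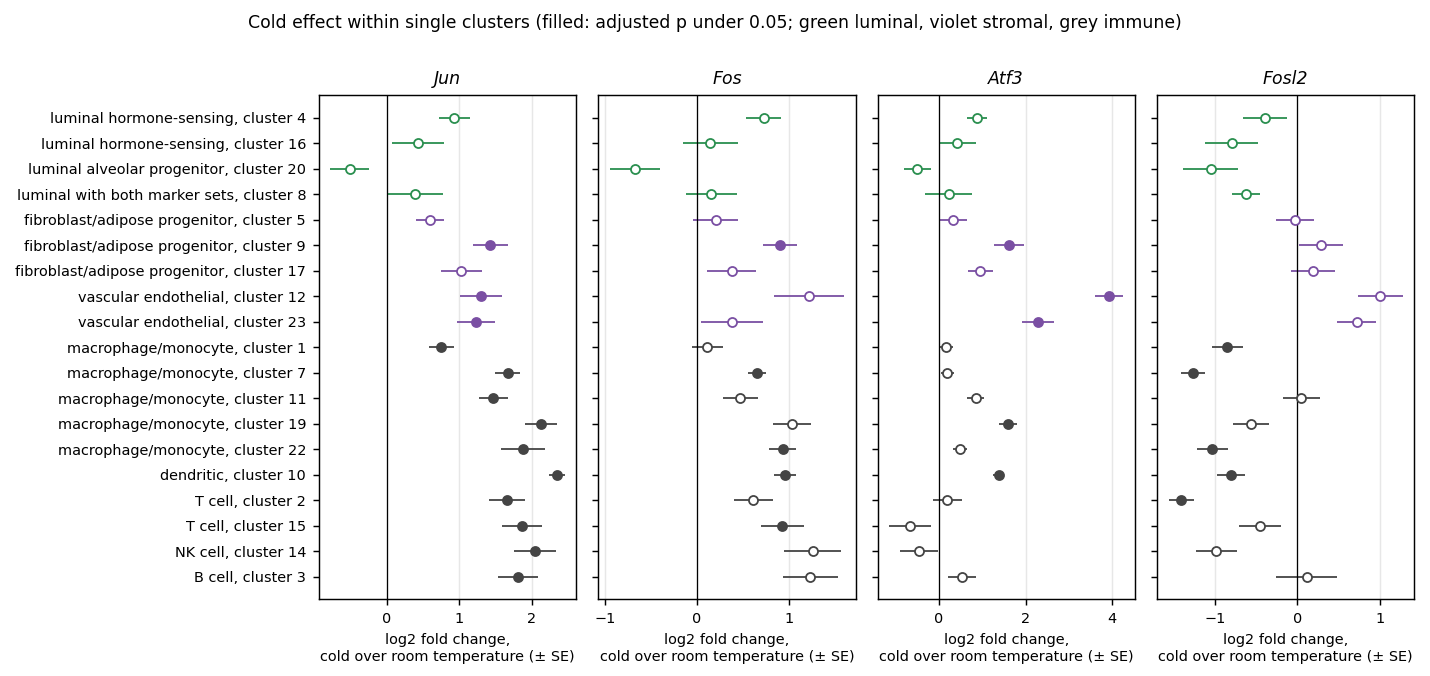
Log2 fold change (cold over room temperature, bars ± SE) of Jun, Fos, Atf3 and Fosl2 within 19 clusters; filled points have an adjusted p under 0.05, and green, violet and grey mark luminal, stromal and immune clusters. Jun is filled and right of 0 in 13 clusters, all stromal or immune, and Fosl2 is filled and left of 0 in 5 immune clusters. Few genes of any kind were called in luminal clusters 4, 8 and 16.

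Whether the cold effect differed between compartments was tested in 1 joint edgeR fit with the library as a block, where every class counts the same. This fit treats the class sums of a library as separate units, though only 2 libraries stand behind each group. The epithelial mean took the hormone-sensing and alveolar classes. The difference of epithelium minus stroma was below 0 for 4 members, Atf3 (-2.54, SE 0.35, adjusted p 3.275e-04), Fosl2 (-1.73, SE 0.30, adjusted p 0.0019), Jun (-1.69, SE 0.25, adjusted p 7.131e-04) and Fosb (-1.36, SE 0.34, adjusted p 0.0403), and above 0 for none. Over all genes 0.756% were below 0 and 0.317% above. The Atf3 and Jun calls held without each library in turn. The Fosl2 call was lost without cold replicate 1 (-1.33, adjusted p 0.1764), and the Fosb call without cold replicate 1 (-1.42, adjusted p 0.118), without cold replicate 2 (-1.26, adjusted p 0.0733) and without room-temperature replicate 2 (-0.91, adjusted p 0.3949).

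The difference of epithelium minus immune cells was below 0 for Jun (-1.96, SE 0.22, adjusted p 1.942e-05) and Fos (-1.25, SE 0.32, adjusted p 0.0435), with 0.568% of all genes below 0 and 0.907% above. Jun held without each library in turn, and Fos was lost without cold replicate 1 (-1.06, adjusted p 0.3356), room-temperature replicate 1 (-1.15, adjusted p 0.2502) or room-temperature replicate 2 (-1.30, adjusted p 0.1438). The difference of stroma minus immune cells was above 0 for Atf3 (1.88, SE 0.34, adjusted p 0.0073) and Fosl2 (1.5, SE 0.24, adjusted p 0.0023), with 0.338% of genes above 0 and 0.0791% below. Both were lost without cold replicate 2 (Atf3 1.75, adjusted p 0.0929, and Fosl2 1.31, adjusted p 0.108) and without room-temperature replicate 2 (Atf3 1.51, adjusted p 0.2823, and Fosl2 1.22, adjusted p 0.1267). For Jun the difference between stroma and immune cells was -0.27 in this fit (SE 0.22, adjusted p 0.778). It was called below 0 with clusters in place of classes, as given further below.

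These epithelial differences were measured in the luminal classes and do not extend to epithelium as a whole. Not all were stable. Of 15 alternatives, the Fosb call against stroma was kept in 5, and the Fos call against immune cells in 5. With the basal class added to the epithelial mean, an alternative chosen after the data were seen, 0 members were called below 0 against stroma (Atf3 -0.79, adjusted p 0.537, and Jun -0.49, adjusted p 0.747), where 0.0361% of genes were called below 0. Against immune cells, Fosl2 (1.03, adjusted p 0.0412) and Jund (0.71, adjusted p 0.0347) were then above 0, as were 0.772% of genes. The difference of basal minus luminal cells was above 0 for all 7 members other than Fosl1, with Atf3 at 5.21 (SE 0.53, adjusted p 7.437e-08), Fosl2 at 3.78, Junb at 3.75, Fos at 3.60, Jun at 3.59, Fosb at 3.03 and Jund at 2.19, against 1.8% of genes. Fosl1 was called above 0 too (10.7, SE 2.33, adjusted p 0.0076). It rests on 3 and 9 UMIs in cold basal cells and 0 and 0 UMIs at room temperature. Basal minus stroma was above 0 for 6 of these 7 members, all but Fosb (1.68, adjusted p 0.223), against 0.743% of genes. Fosl1 was not called there (9.33, adjusted p 0.247).

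Weighting clusters in place of classes, another alternative chosen after the data were seen, kept Atf3 (-1.57, adjusted p 0.0015), Fosl2 (-1.14, adjusted p 0.0148) and Jun (-0.86, adjusted p 0.0082) below 0 for epithelium minus stroma and Jun (-1.43, adjusted p 1.146e-07) for epithelium minus immune. There 0.515% and 0.417% of genes were called below 0. Fosb against stroma (-0.55, adjusted p 0.357) and Fos against immune cells (-0.71, adjusted p 0.113) were not called. For stroma minus immune cells, Jun was below 0 by clusters (-0.58, adjusted p 0.0251), as were 0.376% of genes. Atf3 (1.49, adjusted p 3.952e-04), Fosl2 (1.18, adjusted p 5.025e-05) and Jund (0.43, adjusted p 0.0392) were above 0, as were 1.3% of genes. Class sums still let the mix of clusters within a class enter. With the largest hormone-sensing cluster in place of its class, a post hoc alternative, Atf3 (-1.99, adjusted p 0.0154) and Jun (-1.26, adjusted p 0.0117) stayed below 0 against stroma. Fosl2 (-1.30, adjusted p 0.0531) and Fosb (-1.26, adjusted p 0.0811) were not called, and 63 of 13900 genes were below 0. Against immune cells Jun (-1.53, adjusted p 4.095e-04) was below 0, as were 32 genes. Summing all cells of a compartment before the fit, which also lets the mix of classes enter, left no member called in any of the 3 differences, and 0 of all 15488 genes. The set of classes differed too. Epithelium there also held luminal cells with both marker sets and basal cells. Stroma also held Schwann cells, and the immune sum held group 2 innate lymphoid cells and neutrophils.

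**Figure D5:**
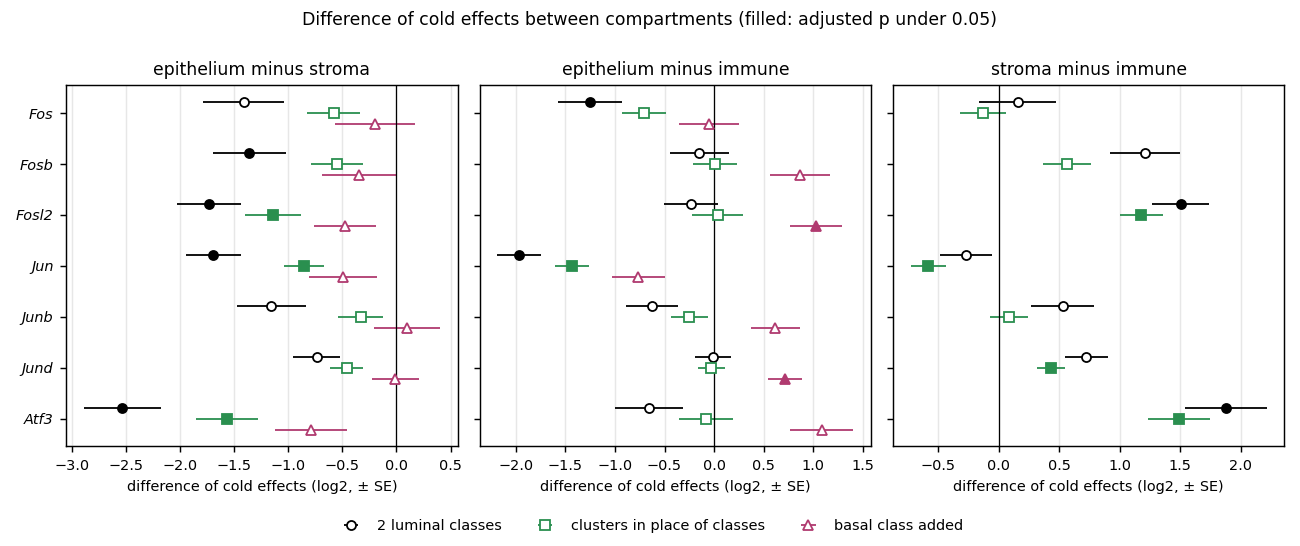
Difference of cold effects between compartments (log2, bars ± SE) for 7 members, with circles for the main fit with 2 luminal classes, squares for clusters in place of classes and triangles for the basal class added; filled symbols have an adjusted p under 0.05. In the left panel the circles of Atf3, Jun, Fosl2 and Fosb are filled and left of 0, whereas no triangle is.

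Genes around AP-1 were read from 6 further lists. Inducible heat shock chaperones, which refold proteins under stress, had members called higher in the 4 main classes in which Jun was called. In group 2 innate lymphoid cells, where Jun was called in the added fit, 3 of 8 chaperones were called higher and 0 lower (median log2 fold change 0.85). There 0.401% of all genes were called higher. In neutrophils, where Jun was also called in the added fit, 0 of 3 chaperones were called (median log2 fold change -0.14). Hspa1a and Hspa1b were not among the genes tested in neutrophils. In dendritic cells 5 of 9 measured were called higher and 0 lower (median log2 fold change 1.25, against 0.01 over all genes), led by Hspa1a at 2.75 (adjusted p 9.696e-04) and Hspa1b at 2.78 (adjusted p 0.0026). In fibroblasts 6 of 10 were called higher, in NK cells 3 of 9 and in T cells 2 of 10, with Hspa1a at 2.86, 3.49 and 2.98 in these classes and 0 lower. In alveolar progenitors 3 of 9 were called lower, Hspd1 (-1.18), Hspe1 (-1.09) and Hsp90aa1 (-0.97), and 0 higher. The part of a heat shock or stress response in the AP-1 changes was not tested.

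Other immediate early genes did not all follow. Klf2, a quiescence factor, was higher in dendritic (1.53) and NK cells (1.33), while the orphan nuclear receptor Nr4a3 was lower in dendritic (-1.28), T (-1.38), NK (-1.54) and macrophage cells (-1.36). Of 19 measured in dendritic cells 1 was called higher and 2 lower, and of 18 in alveolar progenitors 7 were called lower and 0 higher. Among feedback phosphatases and mRNA decay factors, Dusp1, which inactivates MAP kinases, was higher in fibroblasts (1.53, adjusted p 0.0186) and NK cells (1.16, adjusted p 0.0026). In alveolar progenitors 2 of 9 of that list were called lower, Dusp5 (-2.20) and Zfp36 (-1.09).

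Of the other bZIP partners, Batf3, which dimerises with Jun proteins, rose in T cells (2.67, adjusted p 0.0143), Cebpd rose in fibroblasts (1.42, adjusted p 0.0446), and the small Maf protein Maff was lower in macrophages (-1.35, adjusted p 0.0342) and alveolar progenitors (-1.45, adjusted p 0.0319). Among upstream MAP kinases and SRF factors, Map3k1 was lower in T cells (-0.87) and Srf, a DNA-binding activator of Fos, in alveolar progenitors (-2.03, adjusted p 0.0152), with 0 called higher in any of the 10 classes. Among known AP-1 targets, 2 tests were called higher and 7 lower over the 10 classes. In T cells 2 of 7 were lower, Tnfaip3 (-1.07) and Hmox1 (-1.83), and 0 higher (median -0.83). In macrophages Il6 (-2.05, adjusted p 0.0067) and Ccl2 (-1.37, adjusted p 0.0388) were lower and 0 of 14 higher (median -0.85), and in fibroblasts Plau (0.62) was higher while Ccl2 (-0.86) and Cd44 (-0.91) were lower, of 14 measured.

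In the added fit of basal cells the lists differed in how many genes were called. Of 20 other immediate early genes 16 were called higher and 0 lower (median log2 fold change 2.13, against -0.02 over all genes), among them Nr4a1 (3.51, adjusted p 5.615e-06) and Klf4 (3.08, adjusted p 1.507e-05). Of 10 heat shock chaperones 8 were called higher (median 1.65), with Hspa1a at 3.66 (adjusted p 6.935e-05). Of 9 feedback genes 7 were called higher, with Zfp36, an mRNA decay factor, at 3.98 (adjusted p 2.584e-06) and Dusp1 at 3.61 (adjusted p 2.141e-05). Of 12 other bZIP genes 7 were called higher, led by Cebpd at 4.27 (adjusted p 4.302e-07) and Maff at 3.69 (adjusted p 5.965e-06). Of 15 upstream kinases and SRF factors 1 was called higher, Map2k3 (1.24, list median 0.11), and of 6 AP-1 targets 2 were, Hmox1 (2.17) and Sphk1 (1.67). None of these lists had a member called lower in basal cells.

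Across the 40 sums of 10 classes in 4 libraries, Fos and Jun tracked each other most closely (Pearson r 0.966 on the log2 scale, and 0.886 once each class's mean was removed). Fosl2 did not track Jun (-0.169, and -0.251 with class means removed). Points of 1 library share its depth and its cells' handling, so these are descriptions over 40 sums. Among 6328 other genes with a mean of at least 20 CPM, the gene most like Fos and most like Jun was Egr1, another immediate early gene (r 0.936 and 0.905). The nearest gene was Dusp1 for Junb (0.807), Neat1 for Jund (0.746), Rtn4 for Atf3 (0.90), Fgfr1 for Fosb (0.876) and Ifngr1 for Fosl2 (0.865).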

How the data were processed

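The authors deposited 1 gene by barcode matrix per library with raw UMI counts as deposited, and the submitters' processing notes name Cell Ranger 3.0.2, Seurat and the mm10/GRCm38 build. Members and gene lists were chosen with earlier results of these data known. From the counts, barcodes were kept from 500 detected genes upward if mitochondrial UMIs made up less than 15%, and a score against simulated doublets removed cells at a rate of 0.8% per 1000 cells. Cells were clustered (Leiden, resolution 1, 2000 variable genes, leaving out 52 AP-1, immediate early, feedback and heat shock genes, 30 components, 15 neighbours), and a cluster was named where at least 3 markers were present in 10% of its cells and at least 1 log2 unit above the median cluster. UMIs were summed per class and library. Classes with at least 20 cells in each library were tested with edgeR 4.0.16 (quasi-likelihood, TMM, low-count filter) in R 4.3.3, and the difference between compartments in a joint fit with the library as a block. P-values were adjusted by Benjamini-Hochberg over all genes of a fit, with 0.05 as threshold. DESeq2 1.42.0, other filters, clusterings, blocks and each library left out were alternatives. The scripts were tested on simulated data. The class sums there were drawn independently, so an effect shared by the classes of a library was not covered. All 8 members were described, and context genes were named where called, up to 4 per list and class by adjusted p. With 2 libraries a group, an exact permutation test cannot go below 0.333 and was not used. Replicate numbers do not pair libraries by any label.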

Additional observations from a re-analysis of the deposited data

Results flagged for a closer look

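The cold effect differed between groups of cells, by a test of the difference itself in the joint edgeR fit, for 8 pairs of a member and a difference in the main fit. For epithelium minus stroma these were Atf3 (-2.54), Fosl2 (-1.73), Jun (-1.69) and Fosb (-1.36), on the log2 scale. For epithelium minus immune cells these were Jun (-1.96) and Fos (-1.25). For stroma minus immune cells these were Atf3 (1.88) and Fosl2 (1.5). In the fit with the basal class added, basal minus luminal cells differed for Atf3 (5.21), Fosl2 (3.78), Junb (3.75), Fos (3.60), Jun (3.59), Fosb (3.03) and Jund (2.19). Fosl1 also differed (10.7), on 3 and 9 UMIs in cold basal cells and 0 and 0 UMIs at room temperature. The basal values rest on 29 and 19 cold cells and 52 and 94 room-temperature cells. With 2 libraries a group, no library could be tested as standing apart.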

How the results depend on the processing

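Of the 73 tests of a member, 7 were called higher. The count was 13 with the replicate block, 21 without the low-count filter and 4 with the looser cell filter. Calls over all genes moved too, in fibroblasts from 174 higher to 705, 616 and 111 under these settings in turn. In alveolar progenitors they moved from 164 higher to 95, 172 and 34. Counts of members below are given without the share over all genes under each setting, so they are not results about the members alone. Those chosen after seeing the data gave 12 with the crossed block, 16 with smaller classes added and 29 within clusters, and leaving out each library gave 4 to 24. For the 1 lower call, the counts were 5 with the replicate block, 8 without the filter, 3 by DESeq2, 2 with doublets kept, 2 at Leiden resolution 2, 2 with all variable genes, 6 with the crossed block and 5 within clusters, and 1 to 7 with a library left out. Whether replicate numbers pair libraries is not given by the labels, and same-numbered deviations, with 2 pairs per class, correlated at -0.262 to 0.401, above 0.1 in 4 of 10 classes. For epithelium minus stroma, 4 members below 0 became 7 without the filter, 0 with compartments summed, 0 with basal cells added, 2 with the largest hormone-sensing cluster alone and 2 to 4 with a library left out. For epithelium minus immune cells, 2 below 0 became 4 without the filter, 1 with doublets kept, 1 with the looser filter, 1 at resolution 2, 0 with compartments summed, 0 with basal cells added, 1 by clusters, 1 with the largest hormone-sensing cluster alone and 1 to 2 with a library left out, and 0 above 0 became 2 with basal cells added. For stroma minus immune cells, 2 above 0 became 4 without the filter, 0 with compartments summed and 0 to 4 with a library left out, and 0 below 0 became 1 by clusters, which was Jun. Reversed values were Junb in B cells without cold replicate 1 (-0.79, over a leave-one-out range up to 1.09), Junb in luminal cells with both marker sets without RT replicate 1 (0.44, over a range down to -0.39), and, for epithelium minus immune cells, Fos with compartments summed (0.20) and Fosl2 (1.03) and Jund (0.71) with basal cells added. Fewer libraries and fewer or more genes are part of these settings, and otherwise the cause was not tested. Few cells limit basal cells, group 2 innate lymphoid cells, neutrophils and Schwann cells, and few UMIs limit Fosl1.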
